A study of Astyanax mexicanus with 6 samples.

Results

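In livers of the Mexican tetra, Astyanax mexicanus, 2070 open-chromatin regions had a narrower ATAC-seq peak in both cave forms, Pachon and Tinaja, than in the Surface form. They were chosen from 3 peak lists, 1 per form. Overlapping or touching peaks were merged into 110214 union regions, of which 29579 were eligible: on the 25 numbered chromosomes, shorter than 2000 bp and with exactly 1 peak of each list. A member had a Pachon peak and a Tinaja peak each at most as wide as the Surface peak divided by 1.5. Members made up 7.00% of the eligible regions (Wilson 95% interval 6.71 to 7.29). The mirror set, 1726 regions with both cave peaks at least 1.5 times as wide as the Surface peak, made up 5.84% (interval 5.57 to 6.11).

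The study profiled liver from Pachon cave fish, Tinaja cave fish and Surface fish, with 2 samples of each by the labels and no treatment named. The labels are silent on age, sex, rearing and the number of fish per sample. Each list is recorded under replicate 1 of its form, and whether it also holds reads of replicate 2 is not stated. All samples carry the same pair of flow cell codes. There is therefore no spread between replicates, no test between forms was possible, and every difference below is a difference between 3 lists.

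In ATAC-seq, the Tn5 transposase inserts sequencing adapters into DNA that is free of tightly bound nucleosomes, and a peak caller marks where fragments pile up. Such stretches are typically promoters and enhancers, where transcription factors displace nucleosomes. The width of a peak follows how far accessible DNA reaches from its core, but also the depth and signal-to-noise of the library, because weak flanks sink below the caller's threshold first. Cave populations of this species are known for blindness and pigment loss, and for a liver that stores much fat and tolerates long fasts. In whole liver, fewer open nuclei and less accessibility per nucleus cannot be told apart. No gene, promoter or exon is assigned to any region here, and the tissue was not checked against marker genes, because no annotation of the lists' genome build was used. Coordinates are 1-based and follow the lists, whose build is not named.

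In members the cave peaks were narrow for their own lists and the Surface peaks were wide for theirs. The median width was 400 bp in Pachon (quartiles 301 to 537), 423 bp in Tinaja (quartiles 312 to 558.5) and 840.5 bp in Surface (quartiles 645 to 1093). Over all eligible regions the medians were 576 bp in Pachon, 616 bp in Tinaja and 634 bp in Surface. These widths chose the members and are given as a description. In the cave with the smaller difference, the cave peak was narrower than the Surface peak by a median of 360.5 bp (quartiles 272 to 517.75, range 131 to 1525). Differences of 200 to under 400 bp were the most frequent: 473 members lay between 200 and 300 bp and 520 between 300 and 400 bp.

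Most members passed the rule by a small margin. The ratio of the Surface width to the wider of both cave peaks had a median of 1.73, and 1068 members (51.6%) lay below 1.75. It reached 2 or more in 548 regions, 1.85% of the eligible ones, and 3 or more in 66, or 0.223%; in the mirror set 155 reached 3, or 0.524%. At the edge of the rule, a member on chromosome 3 from 38031082 to 38031810 had widths of 486 bp in Pachon, 448 bp in Tinaja and 729 bp in Surface. Just outside it, a region on chromosome 22 from 26802531 to 26803575 had 697 bp in Pachon, 628 bp in Tinaja and 1045 bp in Surface. The 5 members nearest the limit had a ratio of exactly 1.5, and the 5 nearest regions outside it had ratios of 1.49883 to 1.49928.

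Taken 1 cave at a time, 4675 eligible regions (15.8%) were narrower than Surface by the factor of 1.5 in Pachon, and 3417 (11.6%) were so in Tinaja. In the other direction, 2519 (8.52%) were wider in Pachon and 3184 (10.8%) in Tinaja. Both comparisons use the same Surface peak, so the overlap of the caves is what the rule fixes and is not read as agreement. Regions that were narrower in Pachon and wider in Tinaja numbered 64 (0.216%), and those narrower in Tinaja and wider in Pachon 24 (0.0811%).

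**Figure D1:**
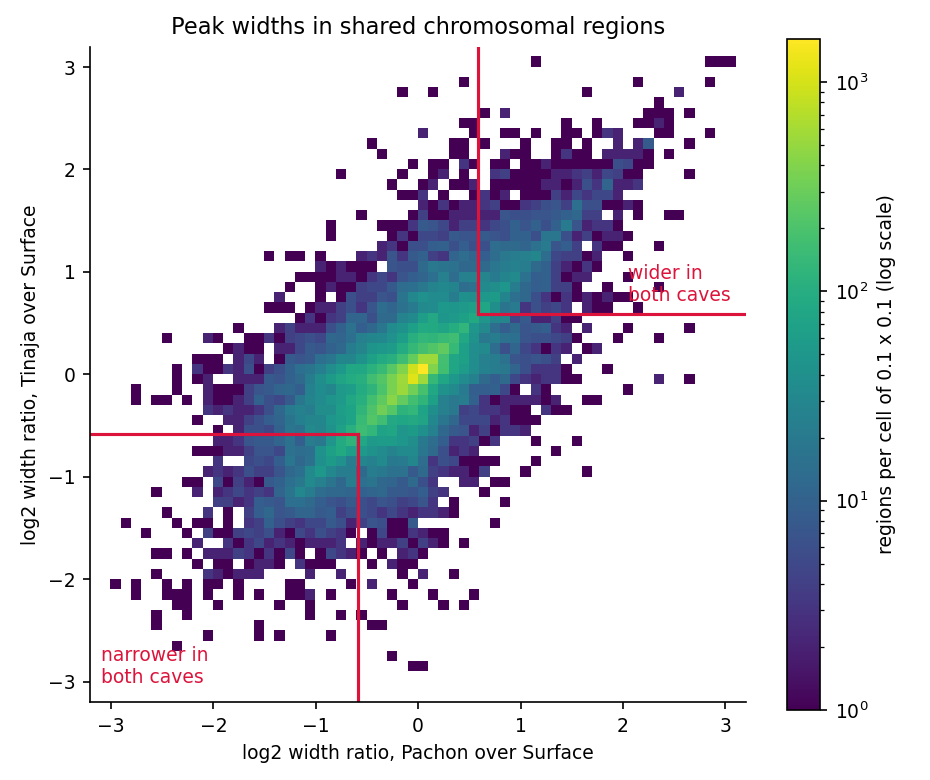
Each cell counts eligible regions by the log2 ratio of peak widths, Pachon over Surface on the horizontal axis and Tinaja over Surface on the vertical axis. The red corners enclose the 2070 members at the lower left and the 1726 regions of the mirror set at the upper right, and both axes share the Surface width.

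Whether narrowing or widening was the more frequent direction turned on how widths were scaled. With widths as deposited, members outnumbered the mirror set 1.20 to 1, or 54.5% of both sets together. After each width was divided by its list's median over eligible regions, 1541 regions were narrower in both caves and 2120 were wider, a ratio of 0.727, or 42.1% narrower. These were 5.21% and 7.17% of the eligible regions. The Surface list had the largest median, so the division made the limit stricter for narrower regions and looser for wider ones. The narrower number could then only fall and the wider number only rise. By construction, all 1541 were members by the deposited widths, 74.4% of the 2070. At a ratio of 2 on the deposited widths the mirror set was also the larger, with 548 narrower and 658 wider regions (2.22% of eligible regions). Neither direction was thus the more frequent across scalings and thresholds.

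The balance also varied with the width of the widest of the 3 peaks. The rule used these widths: the widest peak is the Surface peak in every member and a cave peak in the mirror set. The counts by class are therefore a description. Where the widest of the 3 peaks was 1000 to under 1500 bp, 546 of 5463 eligible regions (9.99%) were narrower in both caves and 339 (6.21%) were wider, a ratio of 1.61. The scaled widths gave 436 and 383 there, a ratio of 1.14. Where the widest peak was 500 to under 700 bp, 460 of 8092 eligible regions (5.68%) were narrower and 533 (6.59%) wider, a ratio of 0.863. After scaling, 331 were narrower and 671 wider. In both scalings the ratio of narrower to wider regions was thus higher in the first of these classes. On deposited widths this ratio was 0.207 below 400 bp, from only 6 narrower and 29 wider regions, and 1.75 at 1500 to under 2000 bp, from 142 and 81.

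The 2 sets met the lower limit of peak width differently. The narrowest peak was 221 bp in the Pachon list, 226 bp in the Tinaja list and 212 bp in the Surface list. Of members, 24.7% had a Pachon peak and 21.1% a Tinaja peak under 300 bp, and both were so in 285 (13.8%). In the mirror set the Surface peak was under 300 bp in 883 regions (51.2%). Over all eligible regions the shares under 300 bp were 9.88% in Pachon, 6.88% in Tinaja and 9.22% in Surface. The rule chose members for narrow cave peaks and the mirror set for a narrow Surface peak. Higher shares than these therefore follow from the rule and are a description. Of the 24164 eligible regions in which all 3 peaks measured at least 300 bp, 1407 (5.82%) were narrower in both caves and 843 wider, a ratio of 1.67. This filter used the same widths as the rule. How far the minimum width sets the balance was not tested.

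As the wide list, Surface stood apart from both others more often than either cave list did, and the order of the narrow lists depended on the scaling. Against the 2070 regions in which Surface was wider than both others by the factor of 1.5, Tinaja was wider than both others in 984 (3.33%) and Pachon in 490 (1.66%). Surface was narrower than both others in 1726 regions, Pachon in 1767 (5.97%) and Tinaja in 783 (2.65%). On deposited widths, Pachon was thus the narrow list slightly more often than Surface. After division by the list medians, Surface was wide in 1541 regions (5.21%), Tinaja in 845 (2.86%) and Pachon in 714 (2.41%). Surface was then narrow in 2120 (7.17%), Pachon in 1216 (4.11%) and Tinaja in 905 (3.06%).

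**Figure D2:**
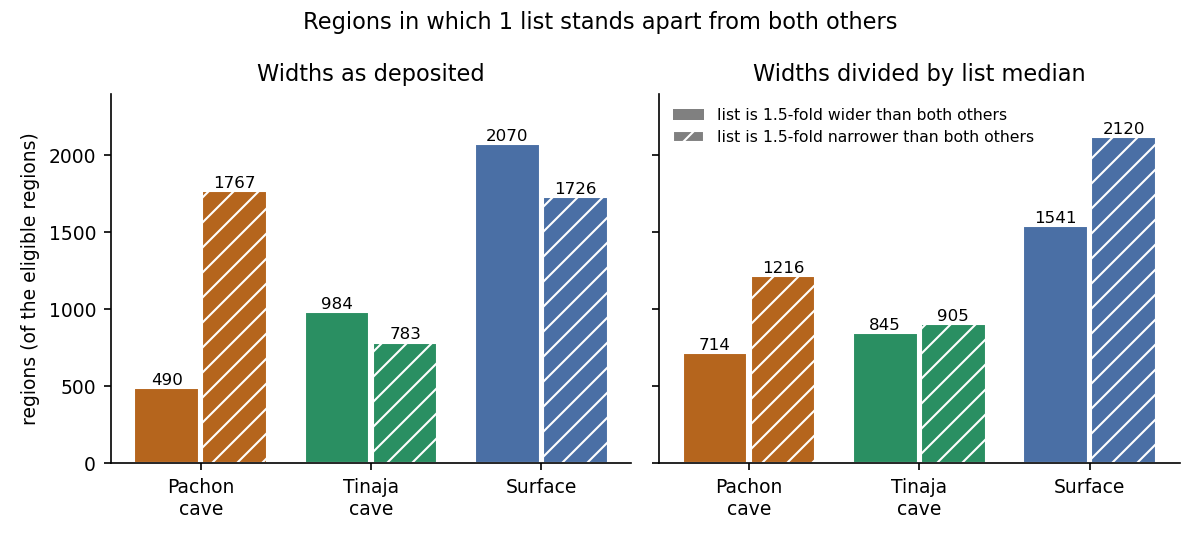
Bars count eligible regions in which the peak of 1 list was wider (plain) or narrower (hatched) than the peaks of both other lists by a factor of at least 1.5, with widths as deposited at the left and divided by each list's median at the right. The plain Surface bar at the left is the 2070 members, and it falls to 1541 at the right.

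The rule did not use where in the Surface peak the cave peaks lay. It did require a much narrower cave peak in the same region, and this by itself favours a place inside the Surface peak. The same holds for the Surface peak in the mirror set, so the shares inside are a description. Most cave peaks lay inside the Surface peak: the Pachon peak was fully inside it in 76.5% of members, the Tinaja peak in 72.2%, and both in 65.4% (1353 of 2070). In the mirror set the Surface peak was fully inside both cave peaks in 66.9%. Peaks are single intervals, so a peak that is not inside reaches past the Surface peak at 1 end.

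In about as many members as not, the missing width lay mainly at 1 end of the Surface peak in both caves, at a limit of 80%. A cave peak was counted as end-biased when at least 80% of the base pairs by which the Surface peak reached beyond it lay at 1 end. By this measure 1064 members (51.4%, Wilson 95% interval 49.2 to 53.5) were end-biased in both caves, 585 (28.3%) in neither and 421 (20.3%) in 1 cave. A cave peak that reached past the Surface peak at 1 end was end-biased by construction. Of the 1353 members with both cave peaks inside the Surface peak, 32.4% were end-biased in both caves. In the mirror set, where the cave peaks reach past Surface, 48.7% were end-biased in both caves (interval 46.3 to 51.0).

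Where both caves were end-biased, they lacked the same end. This held in 1032 of 1064 members (97.0%, interval 95.8 to 97.9), and 32 lacked opposite ends. The low-coordinate end was missing in 527 and the high-coordinate end in 505. In the mirror set the same end was added in 827 of 840 regions (98.5%, interval 97.4 to 99.1). Both caves are set against the same Surface peak, which by itself favours the same end, so these shares were compared with those obtained when another list takes the place of Surface. Of regions in which Tinaja was the wide list, Pachon and Surface lacked the same end in 91.4% (457 of 500, interval 88.6 to 93.6), and of those in which Pachon was wide, Tinaja and Surface did so in 93.2% (274 of 294, interval 89.7 to 95.6). The share was thus high with every list as the wide one, and 3.80 to 5.59 points higher with Surface. With Pachon as the narrow list, Tinaja and Surface shared the end in 94.1%, and with Tinaja as the narrow list, Pachon and Surface did so in 94.1%. The cave peaks also overlapped each other more than the Surface peak in the remaining eligible regions. How far that sets these shares was not tested.

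**Figure D3:**
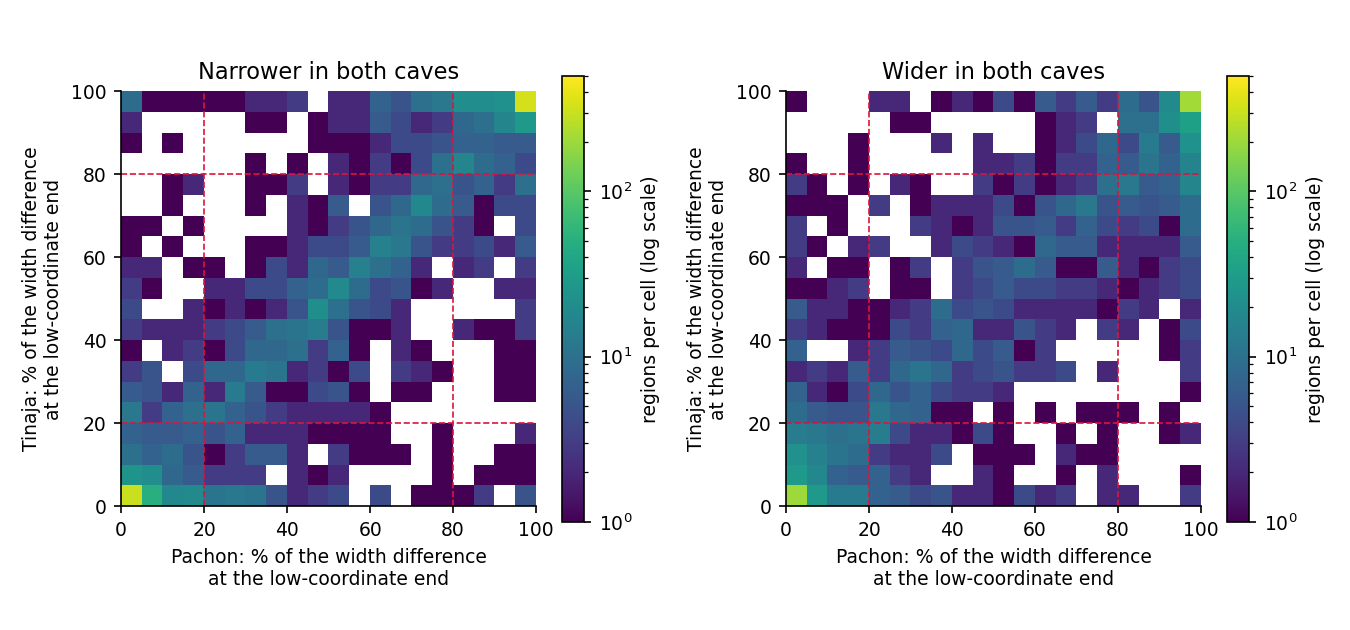
Each cell counts regions by the percentage of the width difference from the Surface peak that lay at the low-coordinate end, for Pachon on the horizontal and Tinaja on the vertical axis, with members at the left and the mirror set at the right. Dashed lines mark 20% and 80%, and the fullest cells lie in the lower left and upper right corners, where both caves differ from Surface at the same end.

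The inner edges of the cave peaks lay close together. In the 1032 members with the same end missing, that edge lay a median of 410.5 bp inside the Surface edge in Pachon and 406 bp in Tinaja. The Pachon and Tinaja edges themselves were a median of 20 bp apart (quartiles 6 to 72), and 716 pairs (69.4%) were within 50 bp. At the kept end, the Pachon and Tinaja edges were a median of 14 bp apart (quartiles 5 to 37), and 833 pairs (80.7%) were within 50 bp. At the kept end the 80% limit holds both cave edges near the same Surface edge. The distances at the kept and missing ends are therefore not compared. The kept edge lay a median of 21 bp from the Surface edge in Pachon and 19 bp in Tinaja, a closeness that the 80% limit itself favours.

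In bp, the matching edges lay further apart in the mirror set, and when another list took the place of Surface, than in members. In the mirror set the outer cave edges were a median of 36 bp apart. The outer edges of the other lists were 47.5 bp apart with Pachon as the narrow list and 52 bp apart with Tinaja as the narrow list. With Pachon as the wide list the inner edges of Tinaja and Surface were a median of 36 bp apart, and with Tinaja as the wide list those of Pachon and Surface were 31 bp apart. No test was made of these differences, since 1 list per form gives no error for an edge. The distances were also not scaled to peak width. Median widths were 655.5 bp in Pachon and 687 bp in Tinaja in the mirror set, against 400 and 423 bp in members. The other pairs of lists also overlapped less than the caves did in the remaining eligible regions, as given below.

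Pachon and Tinaja peaks overlapped slightly less in members than in other shared regions. Their Jaccard index, meaning shared base pairs over all base pairs covered, had a median of 0.836 in members (quartiles 0.656 to 0.933), 0.851 in the mirror set and 0.854 in the remaining 25783 eligible regions. The peak centres were a median of 28.5 bp apart in members, 39.5 bp in the mirror set and 34.0 bp in the remainder. When another list was the wide one, the narrow lists overlapped less. The median Jaccard index was 0.726 for Pachon and Surface where Tinaja was wide. For Tinaja and Surface it was 0.738 where Pachon was wide. These pairs of lists also overlapped less than the caves did in the remainder. The medians there were 0.813 for Pachon and Surface and 0.829 for Tinaja and Surface. The narrower cave peak was at least 80% as wide as the other in 70.9% of members, 73.8% of the mirror set and 67.0% of the remainder. Pachon was the narrower cave in 56.8% of members and 60.4% of the remainder.

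A small group of members held cave peaks at different places. In 24 members (1.16%) the Pachon and Tinaja peaks did not overlap each other and the Surface peak joined them. In the mirror set, where a narrower Surface peak would have to join them, 0 of 1726 regions had separate cave peaks. Of the remaining eligible regions 7 (0.0271%) had separate cave peaks. There too the Surface peak had to join them, which is easier for the wide Surface peak that the rule requires in members. The difference in these shares is therefore a description.

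The 10 members with the largest ratio had cave peaks of 245 to 427 bp and Surface peaks of 1271 to 1952 bp. In 5 of the 10 both cave peaks were under 300 bp, where the narrowest peaks of the lists were 221 bp in Pachon and 226 bp in Tinaja. In 4 of the 10 the same end was missing in both caves, and in 4 neither cave peak was end-biased. The member with the largest ratio lay on chromosome 6 from 7155787 to 7157256. Its peak measured 254 bp in Pachon, 273 bp in Tinaja and 1470 bp in Surface, a Surface width 5.38 times the wider cave peak. The cave peaks shared a Jaccard index of 0.909, and both lay well inside: the Pachon peak began 791 bp from the low end and stopped 425 bp from the high end of the Surface peak. For Tinaja these distances were 769 and 428 bp.

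On chromosome 3, from 445460 to 446744, all 3 peaks began at the same base. The peak was 274 bp wide in Pachon, 277 bp in Tinaja and 1285 bp in Surface, so that 1011 and 1008 bp of the high end were missing in Pachon and Tinaja. The cave peaks had a Jaccard index of 0.989. This is the clearest case of the end-biased form among the 10. A second member on chromosome 3, from 61694713 to 61696024, showed the central form. Its peak measured 268 bp in Pachon and 249 bp in Tinaja, in the middle of a Surface peak of 1312 bp.

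The regions on chromosomes 20, 7 and 6 were of the same kinds. On chromosome 20 from 4784773 to 4786043, peaks of 251 bp in Pachon and 269 bp in Tinaja both began 303 bp inside a Surface peak of 1271 bp. On chromosome 7 from 5529077 to 5530437, the widths were 245 bp in Pachon, 312 bp in Tinaja and 1361 bp in Surface. On chromosome 6 from 45736748 to 45738233, peaks of 297 bp in Pachon and 345 bp in Tinaja kept the high end of a Surface peak of 1486 bp, to within 12 and 5 bp. In each of these regions the cave peaks covered nearly the same stretch, with Jaccard indices of 0.933, 0.785 and 0.861.

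In other members among the 10 the cave peaks covered different stretches. On chromosome 2 from 24975899 to 24977371, a Pachon peak of 248 bp and a Tinaja peak of 299 bp did not overlap within a Surface peak of 1473 bp. On chromosome 9 from 30708291 to 30709869, the Pachon peak of 305 bp and the Tinaja peak of 251 bp, in a Surface peak of 1579 bp, had a Jaccard index of 0.281. On chromosome 5 from 38544245 to 38546086, peaks of 380 bp in Pachon and 420 bp in Tinaja had an index of 0.122, against a Surface peak of 1842 bp. A member can therefore be narrower in both caves without the cave peaks covering the same stretch.

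**Figure D4:**
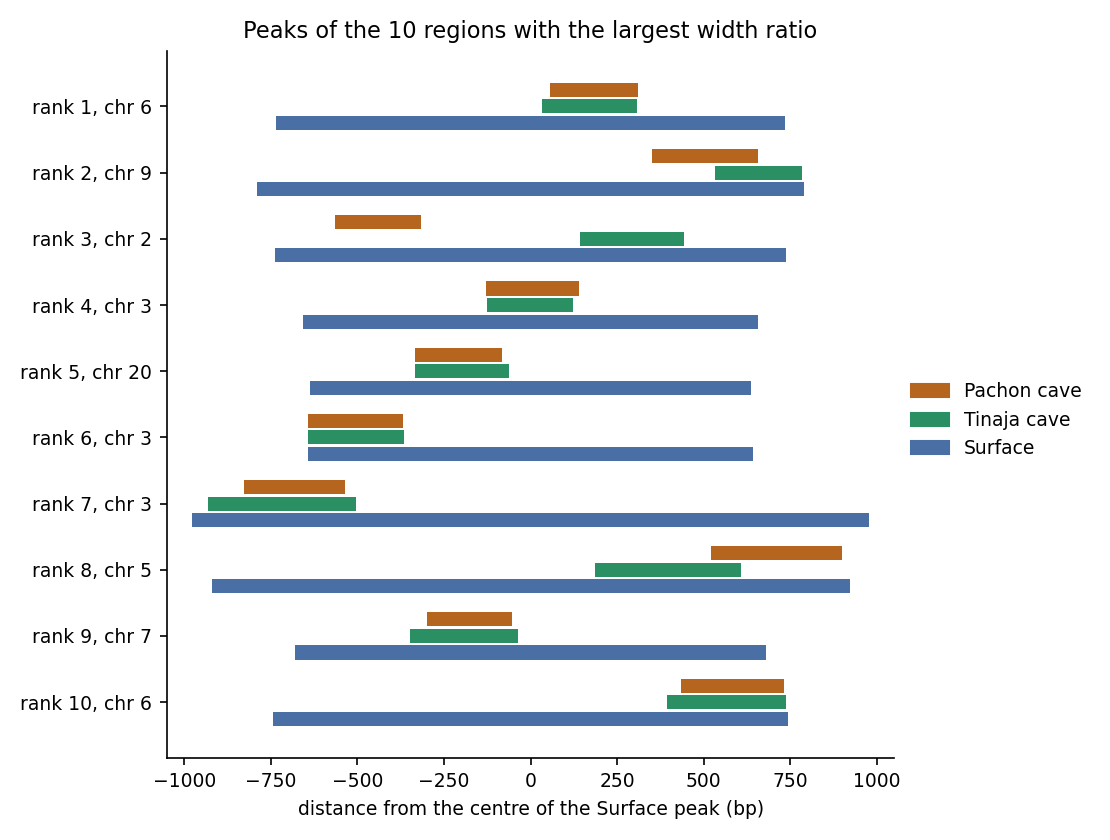
Bars span the Pachon, Tinaja and Surface peaks of the 10 members with the largest ratio of Surface width to the wider cave peak, placed by distance in bp from the centre of the Surface peak. In the regions of ranks 1, 4, 5, 6 and 10 the cave peaks have a Jaccard index of at least 0.8, and in that of rank 3 they do not overlap.

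The member with the largest width difference, taken in the cave with the smaller difference, lay on chromosome 3 from 11088080 to 11090031. Its peak measured 292 bp in Pachon, 427 bp in Tinaja and 1952 bp in Surface, a difference of 1525 bp for Tinaja. The next was the chromosome 5 region above, with 1422 bp. The other members of this top 5 lay on chromosome 16 from 29789492 to 29791381 (1418 bp), chromosome 22 from 17507021 to 17508844 (1379 bp) and chromosome 9 from 34670054 to 34671832 (1360 bp). In those 3 both cave peaks lay in the high-coordinate part of the Surface peak. They measured 453 and 472 bp, 241 and 445 bp, and 419 and 396 bp in Pachon and Tinaja.

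The largest ratios of the mirror set were higher than those of members. A large ratio needs both cave peaks to be narrow in a member, but only the Surface peak in the mirror set. On chromosome 7 from 33613202 to 33615069, widths were 1859 bp in Pachon, 1844 bp in Tinaja and 223 bp in Surface, a ratio of 8.27 for the narrower cave peak. The next lay on chromosome 17 from 24478640 to 24480462, with a ratio of 7.47, and on chromosome 3 from 52206489 to 52208346, with a ratio of 7.39. In these 3 the Surface peak was 220 to 224 bp wide, close to the narrowest of its list.

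Members occurred on all 25 chromosomes. Chromosome 11 had the highest share, 39 of 374 eligible regions (10.4%, Wilson 95% interval 7.72 to 13.9), and chromosome 21 the lowest, 21 of 463 (4.54%, interval 2.99 to 6.83). Chromosomes 19 (9.10%) and 16 (8.44%) also had intervals above the overall 7.00%, and chromosome 21 was the only one with an interval below it. All 25 intervals were looked at, and neighbouring regions need not be independent. Members outnumbered the mirror set on 18 chromosomes, equalled it on chromosome 4 and were fewer on 6. After division by the list medians they were more numerous on 2 chromosomes. Chromosome 24 had the largest share of the mirror set, 8.35%, and 5.78% members.

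**Figure D5:**
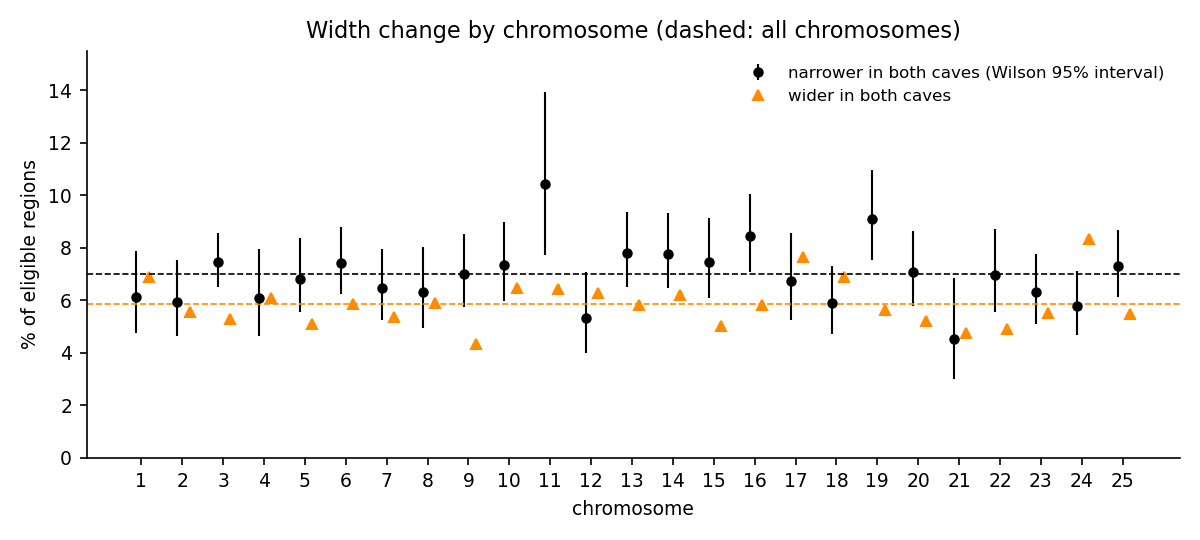
For each chromosome, black points give the percentage of eligible regions that were narrower in both caves, with Wilson 95% intervals, and orange triangles the percentage that were wider. Dashed lines are the values over all chromosomes, 7.00% and 5.84%, and chromosomes 11, 16 and 19 lie above the black line with their whole interval.

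Members were found in most parts of the chromosomes. Of 941 windows of 1 Mb with an eligible region, 760 held a member, and 114 held 5 or more, with 665 members among them. The 665 are not set against the eligible regions of these windows. A window rich in eligible regions can reach 5 without a higher share, so these counts are a description. Of the smaller mirror set, 5 or more regions lay in 50 windows, and the fullest window held 8. The window with the most, chromosome 15 from 4000001 to 5000000, held 9 members and 0 regions of the mirror set among 37 eligible regions. A further 12 windows held 8 members each. The first of these in chromosome order were 23000001 to 24000000 (71 eligible regions) and 38000001 to 39000000 (46) on chromosome 3. They were followed by 24000001 to 25000000 on chromosome 5 (68) and 32000001 to 33000000 on chromosome 7 (64). At a ratio of 2, 1 window held 5 or more, and on scaled widths 45 did.

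Runs of consecutive members were short, as were those of the mirror set. Members were 7.00% and the mirror set 5.84% of eligible regions. Shares this low give mostly single regions, and the runs were not tested against them. In order along the chromosomes, 1717 members had no member as the next eligible region on either side, 158 runs held 2 and 11 runs held 3. The mirror set had 1465 single regions, 109 runs of 2 and 13 runs of 3. The longest run, singled out after its values were seen, held 4 members on chromosome 3 from 23319710 to 23376979. Their widths were 530, 379, 511 and 307 bp in Pachon, 517, 368, 491 and 304 bp in Tinaja, and 800, 607, 845 and 479 bp in Surface. The mirror set likewise had 1 run of 4, on chromosome 15 from 7076738 to 7194751.

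The surroundings of members, which the rule did not use, were denser in open regions than those of the mirror set. The nearest other region lay a median of 1765.5 bp from a member, 3298 bp from a region of the mirror set and 2758 bp from the remaining eligible regions. Within 10 kb, members had 2.61 other regions each, the mirror set 2.08 and the remainder 2.29. No other region lay within 10 kb of 8.02% of members, against 17.9% of the mirror set and 10.9% of the remainder.

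Within 10 kb of members, regions of the Surface list only were about as frequent as around other shared regions. They made up 14.7% of other regions within 10 kb of members (794 of 5410, interval 13.8 to 15.6), 14.2% around the mirror set (interval 13.1 to 15.4) and 14.6% around the remainder (interval 14.3 to 14.9). Within 5 kb the shares were 14.98%, 15.6% and 16.0%, lowest around members, and within 50 kb they were 14.7%, 12.9% and 13.7%, highest around members. The order thus changed with the distance. Regions of both caves only made up 8.04% around members (interval 7.35 to 8.80), 11.6% around the mirror set (interval 10.5 to 12.6) and 7.23% around the remainder (interval 7.02 to 7.44). Within 5 kb these shares were 9.06%, 12.4% and 6.99%, and within 50 kb they were 7.78%, 10.9% and 8.02%. The order of members and remainder thus changed with the distance, while the mirror set stayed highest. Regions open in all 3 lists made up 50.8% around members, 42.3% around the mirror set and 50.5% around the remainder. Tinaja-only regions made up 9.76% around members, 13.6% around the mirror set and 10.6% around the remainder. By the lists that held their neighbours within 10 kb, members were thus closer to the remaining shared regions than to the mirror set, which lay among more regions of cave lists. In these shares a region was counted once for each member or other shared region it lay near. The counts thus hold repeats, and their intervals are too narrow. These shares were not tested.

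Widths near members were compared only for eligible regions outside both sets. Their log2 width ratio, cave over Surface, was averaged over both caves. Within 10 kb its median was -0.068 near members, -0.055 near the mirror set and -0.065 near the remainder. Within 5 kb these medians were -0.040, -0.059 and -0.065, so the order changed with the distance. Both sets were left out by these same widths, which limits how far the medians can differ. Of eligible neighbours within 10 kb, members made up 9.30% around members, 8.52% around the mirror set and 7.97% around the remainder.

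Regions in which a list was split into several peaks fell outside the rule. On chromosomes and under 2000 bp, 240 regions held 2 or more peaks in each cave and 1 Surface peak, and 384 held 1 peak in each cave and 2 or more Surface peaks. Only the Pachon list was split in 343 regions and only the Tinaja list in 264, so a single split list was not particular to Surface. When regions with several peaks were kept and the widths summed per list, 30935 regions were eligible. Of these, 2205 (7.13%) were narrower in both caves and 1870 wider.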

How the data were processed

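Liver ATAC-seq peaks of 3 forms were analysed, 1 list per form. About 70000 nuclei entered each tagmentation of 22 to 24 min, per the labels' protocols. The tools were MACS2 for peaks, Bowtie2, SAMtools and bcl2fastq 2.20, per the submitters' processing notes. Their settings, any Tn5 shift, duplicate handling, the peak threshold and the genome build: not given in the sources used here. Each list has 6 columns, and the deposited score is 0 for every peak, so peaks could not be ranked and the depth behind them is unknown.

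Widths are end minus start of the deposited 0-based starts; printed starts are 1-based. Union regions joined peaks that overlapped by 1 bp or touched. Lists held 72521 peaks covering 48.1 Mb in Pachon, 84653 covering 56.9 Mb in Tinaja and 73380 covering 51.9 Mb in Surface. Members and measures were chosen with earlier results of these data known. The measures with another list in the place of Surface, the edge distances, neighbour widths, runs and split regions were added later. Wilson intervals cover counting error only and treat regions as independent. Neighbours were counted once for each region they lay near, so the intervals of neighbour shares are too narrow. No test was made. Regions named are the 10 largest ratios, the 5 largest width differences and 5 on each side of the limit. Also named are 3 of the mirror set, the extreme chromosomes and 5 windows of 1 Mb. Those just inside and outside the limit are given by example. The classification returned the classes and ends that had been set in simulated peaks without noise. Those peaks always nested. In the narrower ones both caves were cut at the same end or at both ends, by separately drawn amounts. Overhangs, opposite ends and separate cave peaks were therefore not covered. Python 3.11.15, numpy 2.4.6, pandas 2.3.3, scipy 1.17.1 and matplotlib 3.10.9 were used.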

Additional observations from a re-analysis of the deposited data

How the results depend on the processing

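The main values were 2070 regions narrower in both caves, 1.20 narrower per wider region and 7.00% of eligible regions. A Surface peak at least 125% as wide as each cave peak gave 4749 regions, 1.501 per wider region and 16.1%. A ratio of 2 gave 548, 0.833 and 1.85%, and a difference of 200 bp gave 3321, 2.00 and 11.2%. Widths divided by list medians gave 0.727 and 5.21%. Union lengths under 1000 bp gave 1350, 1.06 and 6.10%. Scaffolds gave a ratio of 1.08. Narrow peaks fully inside wide ones gave 1353 and 4.57%, and peaks of at least 300 bp 1.67 and 5.82%. The ratio of narrower to wider regions thus reversed at a width ratio of 2 and on scaled widths; the cause was not tested. Without a length limit, with overlap of 1 bp required, with peaks within 200 bp merged or with widths summed, these 3 values stayed within their limits.

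Of members, 51.4% were end-biased in both caves at 80%. The share was 64.9% at 70%, 39.6% at 90%, 57.8% at a width ratio of 2 and 32.4% for cave peaks fully inside the Surface peak, which by construction drops members whose cave peak passes an end. The same end was missing in 96.5% to 97.9% under all 5 alternatives. The highest value, 97.9%, was for peaks fully inside. The median Jaccard index was 0.848 under 1000 bp, and centres were 22.5 bp apart there and 25.0 bp at a ratio of 2. Surface-only neighbours made up 15.7% at a ratio of 2. Windows with 5 members numbered 114, against 1 at a ratio of 2 and 45 on scaled widths, a setting added after the data were seen for the measures of position. No paired analysis was possible because each form has 1 list. For the same reason no replicate could be left out, and read depth per peak is unknown.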
